A study of Homo sapiens with 12 samples.

Results

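The H3K27ac regions called only with XY018 were the regions in the XY018 peak list that shared no base with any region in the vehicle peak list, on chromosomes 1 to 22 and X. They numbered 39294, which was 37.3% of the 105371 H3K27ac regions listed with XY018. The other 66077 XY018 regions overlapped a vehicle region and are called shared here, and the mirror set of 29162 vehicle-only regions, 30.7% of the 95099 vehicle regions, served as the comparison. The XY018-only regions were chosen by the H3K27ac calls themselves, so their H3K27ac strength, width and distance to vehicle regions are given as a description. The SREBP2 and RORγ peak lists, the gene annotation and the genome sequence played no part in the choice.

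Chromatin immunoprecipitation sequencing was done in HCC70, an established human triple-negative breast cancer line, at passages 6-9 by the labels. Cells received vehicle or the RORγ antagonist XY018 for 24 h. The dose of XY018 is 5 µM in the labels and lower in the study's methods. Each of 3 antibodies, against acetylated lysine 27 of histone H3, against SREBP2 and against RORγ, was used on 1 vehicle library and 1 XY018 library, and the 6 input libraries of the 12 samples were not used here. No library was repeated, so no p-value was computed, no difference between lists has a replicate check, and all intervals below are 95% intervals that cover counting error only. A mark carried by more of the cells and a stronger mark in the same cells cannot be told apart in these bulk libraries.

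H3K27ac is laid down by the acetyltransferases p300 and CBP and marks active promoters and enhancers, where its level follows the activity of the element. RORγ binds the ROR response element, an AGGTCA core with an A/T-rich lead, and recruits coactivators that include acetyltransferases. SREBP2 is the membrane-bound factor that, once cleaved, drives the genes of cholesterol synthesis and uptake through sterol regulatory elements.

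The sequences below surround the summits of 4 of the 5 XY018-only regions with the highest fold over local background. They are shown as examples of what was called with XY018 alone. The nearest vehicle region lay 585 bp away at VDR, 30270 bp at NBAS, 1161 bp at SCARB1 and 86 bp at GTF2IRD1. Each sequence holds 121 bases of the GRCh37 (hg19) plus strand centred on the summit and is named by the nearest protein-coding transcript start. Capitals mark any match to the 18 motifs searched, on either strand.
VDR, chr12:48336180-48336300, plus strand: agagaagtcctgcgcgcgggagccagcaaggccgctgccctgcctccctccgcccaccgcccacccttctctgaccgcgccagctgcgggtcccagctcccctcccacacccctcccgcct
NBAS, chr2:15701104-15701224, plus strand: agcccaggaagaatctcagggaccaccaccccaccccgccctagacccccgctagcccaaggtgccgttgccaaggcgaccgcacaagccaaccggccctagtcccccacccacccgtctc
SCARB1, chr12:125170852-125170972, plus strand: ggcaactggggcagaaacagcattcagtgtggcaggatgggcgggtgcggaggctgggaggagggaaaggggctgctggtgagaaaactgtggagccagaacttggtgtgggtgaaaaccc
GTF2IRD1, chr7:73891763-73891883, plus strand: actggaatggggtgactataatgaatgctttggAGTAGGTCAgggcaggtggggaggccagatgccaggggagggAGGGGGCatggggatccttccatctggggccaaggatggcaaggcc
The VDR stretch lies in an intron of the vitamin D receptor gene, near one of its starts, and the NBAS stretch lies just inside the start of a gene for Golgi-to-ER transport. The GTF2IRD1 stretch holds the ROR response element AGTAGGTCA and a 7-letter piece of the CTCF motif. Its region overlapped no SREBP2 or RORγ region in either treatment, and a match to the element does not show binding. The last stretch comes from another strong region with a ROR response element (ANTAGGTCA or ANTGGGTCA, in capitals) within 150 bp of the summit, the element through which RORγ reads DNA, and is centred on that element.
OVOL2, chr20:17992900-17993020, plus strand: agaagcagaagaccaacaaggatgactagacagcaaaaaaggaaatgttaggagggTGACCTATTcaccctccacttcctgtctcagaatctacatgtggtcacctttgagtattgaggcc

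The XY018-only regions were narrow and weak beside the shared ones. Their width had a median of 351 bp (range 190 to 2139) against 592 bp for shared XY018 regions, and together they covered 15.5 Mb. The fragment pileup at the summit, recovered from the deposited fold and p-value, had a median of 11 fragments (range 5 to 50) against 18 (range 5 to 377) for shared regions. The median fold over local background was 4.84 (range 1.99 to 17.4) against 7.61. Vehicle-only regions had nearly the same values as the XY018-only ones, with a median width of 366 bp, 11 fragments and a fold of 4.79. Of the XY018-only regions, 53.8% had a q-value of 1e-05 or lower, against 55.9% of the vehicle-only and 87.2% of the shared XY018 regions.

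Regions called in 1 list alone were mostly weak in both treatments. Among XY018 regions with 8 to 9 fragments, 72.1% were XY018-only (interval 71.3 to 72.8), and with 12 to 14 fragments 47.2% were. The share came to 26.8% at 15 to 19 fragments, 7.90% at 20 to 29 and 0.681% at 30 to 49. Of 4356 regions with 50 to 99 fragments 1 was XY018-only, and none of the 4906 with 100 or more was, which allows a share of up to 0.0752%. The vehicle list gave the same falling series, from 68.7% at 8 to 9 fragments through 40.8% at 12 to 14 and 7.47% at 20 to 29. Within these classes the XY018 share was the higher by 3.42 to 6.40 percentage points between 8 and 19 fragments. Shared regions with 10 to 11 XY018 fragments had a median of 13 fragments with vehicle (quartiles 11 and 16). The lowest pileup in either H3K27ac list was 5 fragments, so a region absent from the vehicle list may still have carried fragments there.

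**Figure D1:**
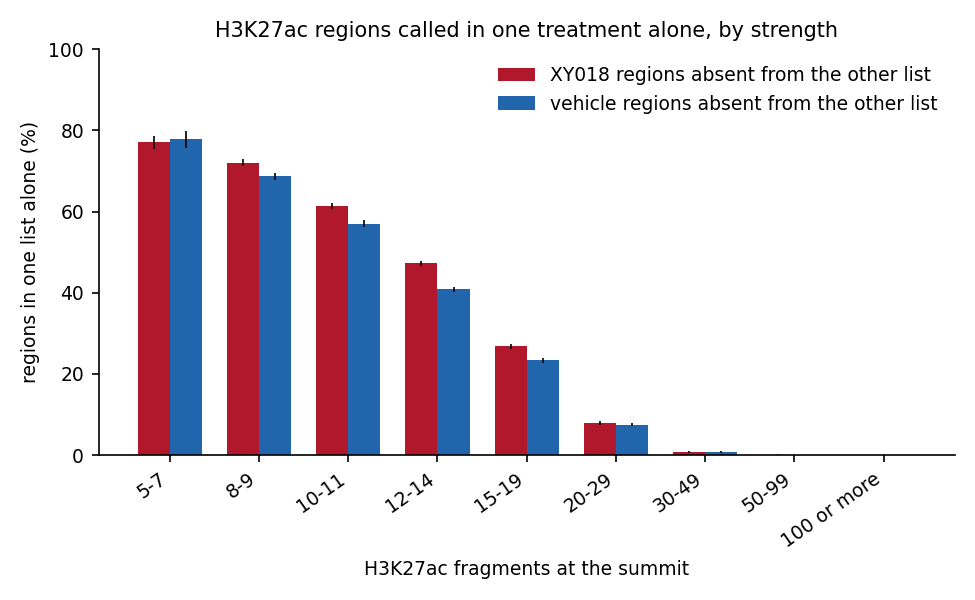
Share of H3K27ac regions (%) called in 1 list alone, by class of fragments at the summit, for the XY018 list (red) and the vehicle list (blue), with 95% binomial intervals as bars. Both series decline from above 77% at 5 to 7 fragments to under 1% from 30 fragments on.

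The 2 H3K27ac libraries differed in depth and in list length. The genome-wide background was 1.17 fragments with vehicle and 1.07 with XY018, so the library with more regions was the shallower. When both lists were cut to 95099 regions by p-value, 33.5% of XY018 regions were XY018-only and 33.2% of vehicle regions were vehicle-only. Shared regions numbered 66077 in the XY018 list and 65937 in the vehicle list. Lists of equal length therefore give nearly equal numbers in 1 list alone by construction. The cut cannot tell why the XY018 list was the longer, so nothing is read from it about the excess of 39294 over 29162 regions. The deposited lists hold part of longer call sets, and the part played by XY018 in the excess was not tested.

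Most XY018-only regions lay close to chromatin that was already marked with vehicle. The median gap to the nearest vehicle region was 1558 bp, and 39.4% (interval 38.9 to 39.9) lay within 1 kb of one. A gap of 10 kb or less was found for 86.1%, and 97.6% lay within 50 kb. For vehicle-only regions the median gap to an XY018 region was 1395 bp, with 42.2% within 1 kb and 86.3% within 10 kb. Only 87 XY018-only regions missed a vehicle region by 10 bp or less, with a median of 11 fragments, and 78 shared regions overlapped one by 10 bp or less, also with a median of 11. Another XY018-only region lay within 1 kb of 22.3% of them.

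**Figure D2:**
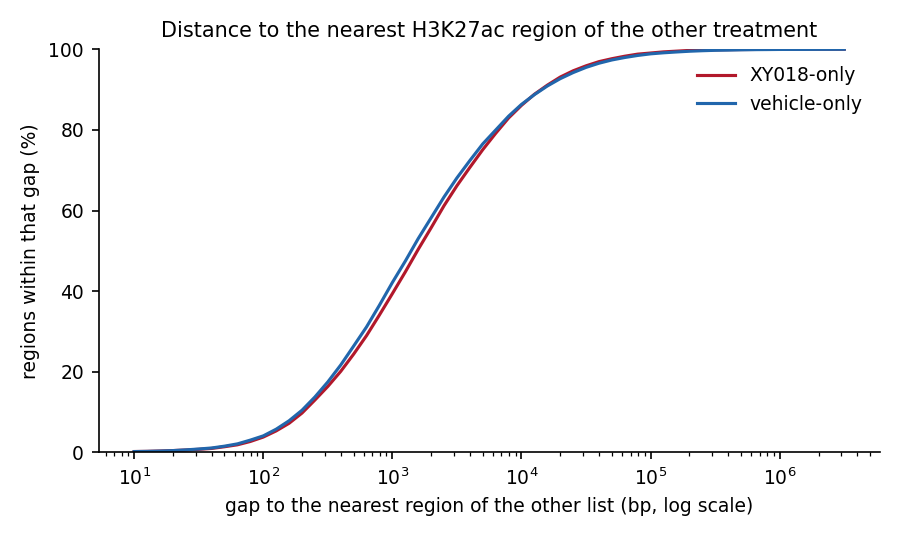
Cumulative share of regions (%) against the gap to the nearest H3K27ac region of the other treatment (bp, log scale), for XY018-only (red) and vehicle-only (blue) regions. The curves run side by side, reaching 39.4% and 42.2% at 1 kb and 86.1% and 86.3% at 10 kb.

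The 925 XY018-only regions over 50 kb from any vehicle region had the highest promoter and factor shares of the 4 classes of distance. Of these, 27.8% overlapped a promoter window, against 17.4% within 1 kb, 9.83% at 1 to 10 kb and 11.6% at 10 to 50 kb. An SREBP2 vehicle region overlapped 32.4% of them, against 10.1%, 11.2% and 15.3% in the nearer classes, and a RORγ vehicle region 31.1%, against 8.95%, 10.6% and 14.7%. The 778 vehicle-only regions at this distance had similar values, 20.4% at a promoter and 33.3% with SREBP2.

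XY018-only regions were mainly intronic, as vehicle-only regions were. The summit lay in an intron for 62.2% of either set. Of XY018-only summits, 21.3% lay between genes, 10.5% in a promoter window (1 kb before to 100 bp after a transcript start) and 5.97% in another exon. Counting any overlap with a promoter window, 13.4% (interval 13.1 to 13.8) of XY018-only regions touched one, against 13.3% of vehicle-only and 33.9% of shared XY018 regions. The median distance from summit to the nearest protein-coding start was 7.79 kb, against 8.09 kb for vehicle-only and 4.24 kb for shared regions.

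Listed SREBP2 and RORγ regions overlapped few of these regions, and a smaller share than of the vehicle-only ones. With vehicle, SREBP2 regions overlapped 11.7% of XY018-only regions (interval 11.4 to 12.1), 18.3% of vehicle-only regions (17.9 to 18.8) and 37.9% of shared XY018 regions. With XY018 the SREBP2 shares were 6.56%, 12.7% and 32.2%. RORγ vehicle regions overlapped 10.9% of XY018-only regions (10.6 to 11.2), 16.1% of vehicle-only (15.7 to 16.5) and 32.9% of shared regions, and RORγ XY018 regions 8.91%, 14.6% and 31.8%. The intervals of the 3 sets did not overlap in any of the 4 factor lists. The order was the same at promoters, where SREBP2 vehicle regions overlapped 21.9%, 32.8% and 67.2%, and away from them, at 10.2%, 16.1% and 22.9%. Weighted to the fragment classes of the XY018-only regions, the vehicle-only share for SREBP2 with vehicle was 17.6% and the shared one 24.4%. The factor lists are longer than the study's counts of high-confidence sites. Of 117441 SREBP2 and 167264 RORγ regions with vehicle, 51241 and 34826 had a q-value of 1e-05 or lower. Regions that strict overlapped 5.77% (SREBP2) and 4.28% (RORγ) of XY018-only regions, against 12.9% and 7.58% of vehicle-only regions. In the 6 settings run on both single-list sets, all 24 factor shares were lower for XY018-only than for vehicle-only regions. These compare single libraries, so the difference has no replicate check.

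**Figure D3:**
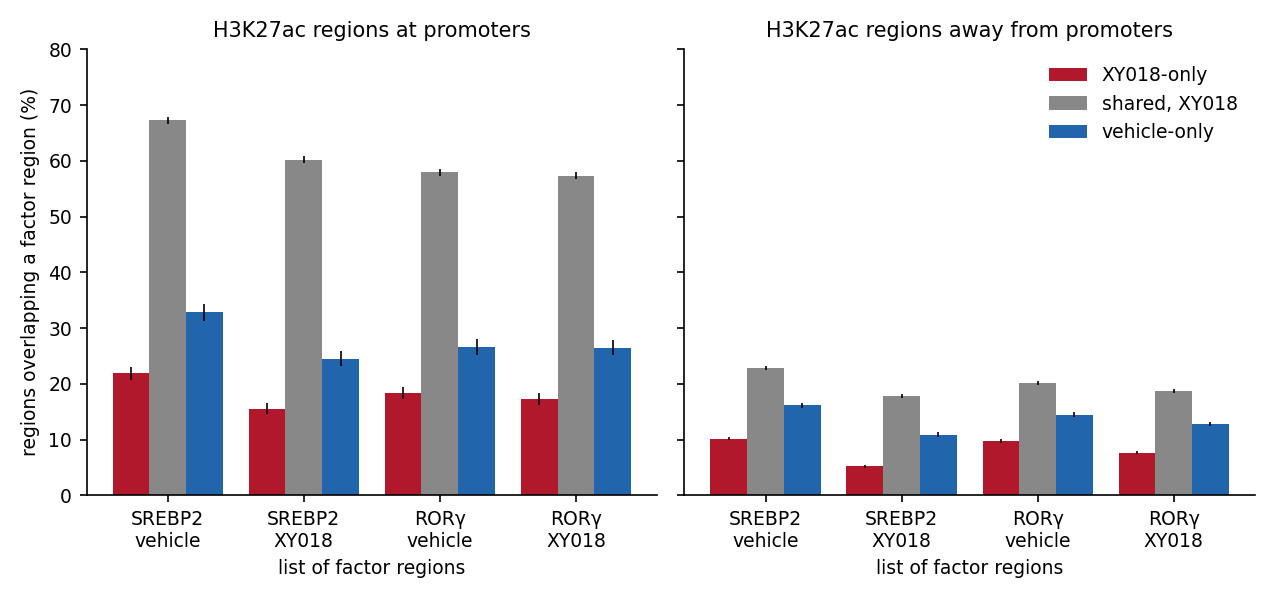
Share of H3K27ac regions (%) that overlap a region of each factor list, at promoters (left) and elsewhere (right), for XY018-only (red), shared (grey) and vehicle-only (blue) regions, with 95% binomial intervals. XY018-only regions have the lowest share in all 4 factor lists, 21.9% for SREBP2 with vehicle at promoters against 32.8% and 67.2%.

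In the full factor lists, calls of both factors were lost with XY018 more often within the set than in the vehicle-only and shared sets. The whole SREBP2 list held 117441 regions with vehicle and 69700 with XY018, and the RORγ list 167264 and 129954. Of the 4614 XY018-only regions with an SREBP2 region in vehicle, 43.7% (interval 42.3 to 45.2) also had one with XY018, against 62.0% of vehicle-only and 82.1% of shared regions. For RORγ the corresponding values were 49.5% of 4288 regions, 65.7% and 87.2%. At a q-value of 1e-05 or lower, the RORγ lists held 34826 (vehicle) and 34087 (XY018) regions. These overlapped 4.28% and 4.23% of the set, and 7.58% and 8.12% of vehicle-only regions. For SREBP2 these shares fell from 5.77% to 3.92% and from 12.9% to 7.74%. SREBP2 vehicle regions that strict lay at 2269 of the 4614 and at 3775 of 5349 vehicle-only regions. Whether weaker factor regions account for the higher loss within the set was not tested. SREBP2 was called with XY018 alone at 559 XY018-only regions (1.42%), against 1.33% of vehicle-only and 1.10% of shared regions, and RORγ at 1378 (3.51%), against 4.02% and 3.07%. These shares were alike in the 3 sets to within 1 percentage point. A region of either factor in either treatment overlapped 20.5% of the set (8044 regions), 26.2% of vehicle-only and 43.0% of shared regions. Where SREBP2 was called in both treatments, the 2017 regions had a median of 29 fragments with vehicle and 20 with XY018. After scaling to background the median ratio was 0.627, and 95.4% of them were lower with XY018. When the background was also divided by the width of the list's shortest region, the median ratio was 0.695. Shared regions gave nearly the same ratios, 0.615 and 0.681. For RORγ the 2114 such regions with whole fragment numbers had medians of 22 and 21 and a ratio of 1.01.

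The sequence at the summits was less GC-rich than at shared regions. The 301 bp around XY018-only summits averaged 51.2% GC (SD 7.29 over regions) and 5.76 CpG, against 57.5% (SD 11.1) and 12.4 CpG at shared and 51.5% (SD 8.18) and 6.24 CpG at vehicle-only summits. Windows 1 kb to either side averaged 46.5% GC. The AP-1 motif (TGANTCA), which FOS and JUN proteins bind, was present in 7.04% of XY018-only windows (interval 6.79 to 7.29), in 7.25% of vehicle-only, 5.55% of shared and 6.10% of all XY018 windows, and in 9.19% of windows 1 kb away. The ROR response element was present in 1.15% (1.05 to 1.26), 1.09%, 0.970% and 1.04% of the same sets in that order, and in 1.45% of windows 1 kb away. The sterol regulatory element (TCACNCCAC) was found in 4.46% of XY018-only windows, 4.45% of vehicle-only and 3.31% of shared windows, and in 3.09% at 1 kb. Of the 18 motifs, 1 had intervals that separated XY018-only from vehicle-only summits. That was the ATF4 element (TGATGNAA), bound by the stress-response factor ATF4 with C/EBP partners, at 3.80% (3.61 to 3.99) against 3.05% (2.86 to 3.26), and it too was more frequent 1 kb away, at 5.04% and 4.67%. A match shows the letters only and says nothing of binding.

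Letters of Alu elements, the abundant primate repeats, were frequent at the summits. The 9 letters TGTAATCCC, common in Alu copies and picked after summit sequences had been seen, occurred in 29.6% (interval 29.2 to 30.1) of XY018-only summit windows. They occurred in 15.7% of windows 1 kb away, in 28.5% of vehicle-only, 20.9% of shared and 24.1% of all XY018 summit windows. Away from promoters the shares were 31.1% for XY018-only and 27.1% for shared regions, with an interval of 29.4 to 30.5 for the vehicle-only share, and at promoters, for XY018-only, vehicle-only and shared regions, 20.3%, 18.8% and 8.74%. SREBP2 regions with vehicle overlapped 7.93% of the XY018-only regions that held these letters and 13.3% of those that did not, and SREBP2 regions with XY018 2.48% and 8.27%. For RORγ the values were 10.5% and 11.1% with vehicle and 6.64% and 9.86% with XY018. In summit windows without these letters, the sterol regulatory element was found in 3.80% of XY018-only, 3.74% of vehicle-only and 2.69% of shared windows. Those shares were lower than over all windows of each set. According to the methods of the study only uniquely placed reads were kept, and the part that placement in repeats played in the calls was not tested.

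XY018-only regions outnumbered vehicle-only regions by 1.35 to 1 in the genome, and the ratio varied between chromosomes. It was lowest on chromosome 5, with 1125 against 1098 regions, and highest on chromosome 16, with 2929 against 1780, a ratio of 1.65. Chromosome 1 alone held 6387 XY018-only regions, 16.3% of the set, against 4027 vehicle-only, and chromosome 14 held 1994 against 1276. All 23 chromosomes had more XY018-only regions in the lists as deposited. With lists of equal length, which make both totals nearly equal, 10 of 23 did, with ratios from 0.831 on chromosome 5 to 1.14 on chromosome 16. By density, chromosome 19 held 35.8 XY018-only regions per Mb, chromosome 16 held 32.4 and chromosome X 2.64. The share of XY018 regions that were XY018-only ran from 31.3% on chromosome 19 to 41.9% on chromosome 13.

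**Figure D4:**
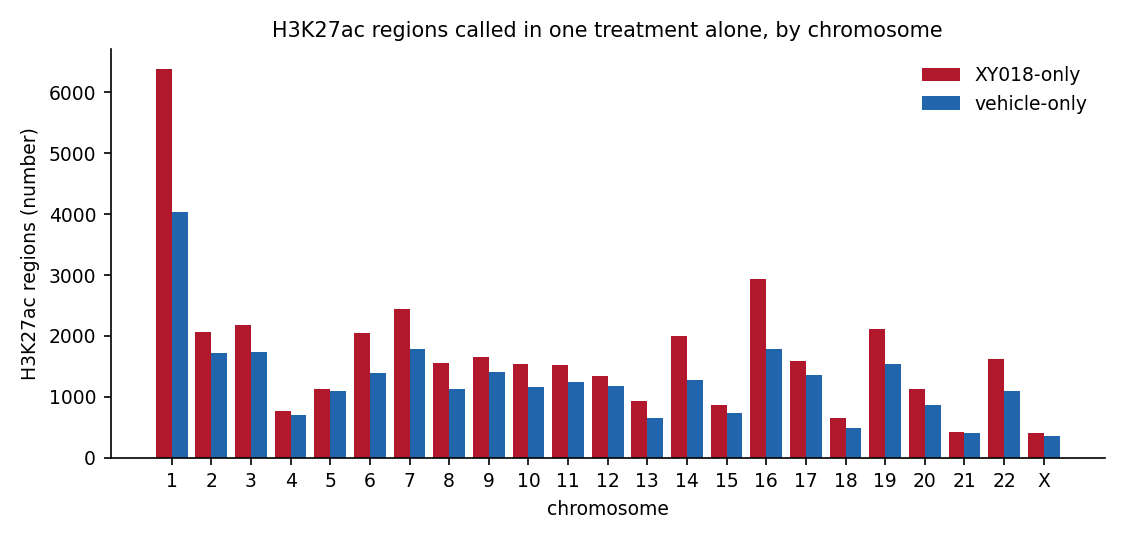
Number of XY018-only (red) and vehicle-only (blue) H3K27ac regions on each chromosome. The red bar is the higher on all 23 chromosomes in the lists as deposited, with the widest gaps on chromosome 1 (6387 against 4027) and chromosome 16 (2929 against 1780).

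The 10 XY018-only regions of highest fold had between 30 and 41 fragments. The first, chr12:48335994-48337093 in an intron of VDR, 591 bp from a transcript start, had 35 fragments with XY018 (interval 24.4 to 48.7), a fold of 17.4, and no vehicle region nearer than 585 bp. It was also the only one of the 10 that overlapped factor regions, the SREBP2 pileup being 24 fragments in vehicle and 19 under XY018, and the RORγ pileup 25 and 19. VDR is the receptor for active vitamin D and, like RORγ, a member of the nuclear receptor family. The second, chr2:15700917-15701352, had 35 fragments 274 bp inside NBAS, 30270 bp from the nearest vehicle region. The third lay in a promoter window of the readthrough gene C8orf44-SGK3, with 41 fragments. Region chr12:125170749-125171099, with 33 fragments, lay between genes, 100127 bp from the nearest start, that of SCARB1, the HDL receptor.

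Of the next ranked, chr7:73891245-73892553 had 38 fragments in an intron of GTF2IRD1, a transcription factor gene of the Williams syndrome region, and ended 86 bp from a vehicle region. Regions nearest to LBR, TRABD2A, SLC35F6 and USP48 had 35, 37, 31 and 30 fragments. The SLC35F6 one also lay within the span of CENPA, the centromeric histone H3 variant. LBR encodes a sterol reductase of the inner nuclear membrane, but its start was 33369 bp away. EPG5, a gene of autophagy, also had 30 fragments. Of these 10, 7 lay within 1 kb of a vehicle region.

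At the level of genes, 3377 of 20090 protein-coding genes (16.8%) had an XY018-only region in a promoter window. Most of them also had a vehicle region there. A promoter was called gained when it held an XY018-only region and no vehicle region, which was the case for 624 genes, 3.11% of all and 9.36% of the 6669 genes without a vehicle region at the promoter. The reverse, a vehicle-only region and no XY018 region, was found for 376 genes (1.87%), and lists of equal length gave 559 against 416. The 624 genes drew on 590 regions with a median of 12 fragments (highest 39), of which 40 genes had 20 or more. Because the rule used the H3K27ac contrast, nothing is read from these counts.

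Factor regions were listed less often at the gained promoters than at those of all protein-coding genes. An SREBP2 vehicle region lay in the promoter windows of 63.9% of the 624 genes and a RORγ vehicle region at 55.9% (interval 51.9 to 59.9), against 70.6% and 62.7% of all 20090 genes. These values lay between those of the 12985 genes with H3K27ac called in both treatments, 88.7% and 77.8%, and the 5988 called in neither, 33.2% and 31.6%. The 376 genes with the reverse pattern had 60.6% and 51.9% (46.7 to 57.0), the latter interval overlapping that of the gained ones. With XY018 the gained promoters had SREBP2 at 50.6% and RORγ at 52.4%, against 62.7% and 61.5% of all genes.

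The 15 genes whose gained promoters had the highest fold came from many processes. NBAS and EPG5 are described above, and no factor region but an SREBP2 vehicle one of 9 fragments at EPG5 was listed at either. GADD45G, a stress-inducible growth arrest gene, had an XY018-only region of 28 fragments at chr9:92219903-92220441 (interval 18.6 to 40.5), 249 bp from a vehicle region outside its promoter windows. In its promoter windows the SREBP2 pileup was 24 fragments in vehicle and 20 under XY018, and the RORγ pileup 25 and 31. MEIS3, a homeodomain factor gene, had 27 H3K27ac fragments with XY018 at chr19:47922099-47922869. SREBP2 had 36 and 34 fragments there with vehicle and XY018, and RORγ 55 and 48, the highest RORγ pileups of the 15. SHOX2, another homeodomain gene, had 25 H3K27ac fragments, with 43 and 34 for SREBP2 and 36 and 33 for RORγ. NTRK2, which encodes the BDNF receptor TrkB, had 23 H3K27ac fragments, with 25 and 21 for SREBP2 and 27 and 18 for RORγ. Thus GADD45G, MEIS3, SHOX2 and NTRK2 had listed regions of both factors in both treatments while the H3K27ac region was listed with XY018 alone.

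Few factor regions were listed at the other gained promoters of highest fold. TTK, the mitotic checkpoint kinase, had 27 fragments at chr6:80714374-80714833, 50 bp from a start and 101537 bp from the nearest vehicle region. ARL14EP had 27 fragments, 262503 bp from the nearest vehicle region, and TBC1D8B on chromosome X 25 fragments, 75561 bp away. WDR5B, a close relative of the chromatin adaptor WDR5, had 33 fragments. CDC26, a subunit of the anaphase-promoting complex, and PRPF4, a spliceosome protein, share 1 region of 24 fragments. RBP5, ADGRE2 and ATF7, the last a bZIP factor of the CREB/ATF family, had 23, 22 and 21 fragments. No factor region was listed at these promoters apart from SREBP2 with vehicle at ATF7, with 8 fragments.

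The listed gene groups gave few gained promoters. Of 367 matched genes in 21 lists, 86 (23.4%) had an XY018-only region at a promoter, against 16.8% of all genes, and 12 (3.27%) were gained, against 3.11%. These counts are a description. Among 21 cholesterol synthesis genes none was gained, 20 were called in both treatments, and HMGCS1, FDPS, CYP51A1 and LBR had an XY018-only region beside a vehicle one. Of 14 other SREBP targets, 4 had such a region, SREBF1, FADS1 and NPC1L1 among them, and none was gained. The unfolded protein and integrated stress response list had 2 of 20 genes with an XY018-only region, XBP1 and HERPUD1, and all 20 were called in both treatments. The epithelial-mesenchymal list had 2 of 18, the AP-1 family 2 of 16, and the xenobiotic and oxidative stress list 1 of 20, each with none gained. Histone acetylation genes, the writers, erasers and readers of histone acetylation in general, had 9 of 24, with EP300 and BRD3 among them, and cell cycle genes 7 of 18. Luminal identity genes also had 7 of 18, apoptosis genes 6 of 25, interferon genes 5 of 20, basal identity genes 4 of 15, Th17 genes 3 of 13, nuclear receptor cofactors 3 of 12, nuclear receptors 2 of 27 and fibroblast and endothelial markers 1 of 9, again with none gained. The reverse pattern was found at KIT, OAS2, TP63 and RARB of these lists, with 14, 11, 16 and 14 vehicle fragments.

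The 12 gained genes came from 6 of the 21 lists. IL1A and IL1B, the genes of interleukin-1 alpha and beta, and BIRC3, an inhibitor of apoptosis, were 3 of 18 NF-kappaB and inflammatory genes. IL1B had 21 fragments with XY018 (interval 13.0 to 32.1) at chr2:113593927-113594407, 18 bp from its start and 12039 bp from the nearest vehicle region, and no factor region in any of the 4 lists. IL1A had 10 fragments and BIRC3 13. CCL2, a chemokine gene of the same list, was the reverse, with 10 fragments in vehicle and no XY018 region. KRT13, KRT6A and TGM1 were 3 of 23 squamous differentiation genes, with 12, 8 and 10 fragments, and KRT4 was the reverse with 12 in vehicle. HLF and CIART were 2 of 20 clock and ROR genes. HLF, a PAR bZIP factor of clock output, had 20 fragments with XY018, with SREBP2 at 21 and 22 and RORγ at 25 and 18. CCND2, the gene of cyclin D2, had 11 fragments with SREBP2 at 40 and 34 and RORγ at 43 and 41. APOC1 had 9 fragments as 1 of 13 LXR and efflux genes. ITGAM and NKG7, 2 of 10 blood cell markers, had 13 and 8. Most of these pileups were near the set's median of 11 fragments, where 61.4% of all XY018 regions with 10 to 11 fragments were XY018-only.

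SREBF2, SQLE and ABCA1 were not among the gained genes. The promoter of SREBF2, which encodes SREBP2, had 239 H3K27ac fragments with vehicle and 286 with XY018. SQLE, which encodes the squalene epoxidase of cholesterol synthesis, had 61 and 88, and ABCA1, a cholesterol exporter gene, 44 and 63. Within their spans, from 1 kb before the start to the end, XY018-only regions numbered 7 at SREBF2, 2 at SQLE and 4 at ABCA1, against 5, 1 and 6 vehicle-only regions. None of these XY018-only regions overlapped an SREBP2 region, and 1, at ABCA1, overlapped a RORγ region with vehicle. The promoter pileups of SREBF2, SQLE and ABCA1 are unscaled counts from single libraries. The XY018 library had the lower genome-wide background, 1.07 fragments against 1.17 with vehicle. Over all shared regions the median fold was 6.97 in the vehicle list and 7.61 in the XY018 list. No gain of the mark at these genes is read from the counts. The study reports reduced H3K27ac after XY018 at cholesterol synthesis genes, with SQLE as an example. The SQLE promoter pileup here, 61 with vehicle and 88 with XY018, ran the other way, and the reason was not tested.

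Promoters of epithelial markers carried the mark in both treatments, as those of some markers of other cells did. The epithelial markers EPCAM, CDH1, KRT8 and KRT18 had 98, 238, 80 and 68 fragments with vehicle and 132, 302, 89 and 89 with XY018, and EGFR 231 and 255. KRT17 and KRT5, basal markers, had 8 and 33 with vehicle and 18 and 22 with XY018, and KRT14 had no region. The leukocyte and T cell markers PTPRC and CD3E, the progesterone receptor gene PGR and the pericyte marker PDGFRB had no region in either list. ESR1 had 10 and 13 fragments, and the endothelial marker CDH5 12 and 12. CD68, a macrophage marker, had 58 and 50, and COL1A1, a fibroblast collagen gene, 110 and 142. PECAM1 was not matched to the annotation.

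The spans with the most XY018-only regions were those of long genes, and the same held for vehicle-only regions. Of 20098 protein-coding gene spans, 45.0% (9050) held at least 1, with a median of 2 among them, and 558 spans held 10 or more. Those 558 had a median length of 145 kb against 28.3 kb for all spans, and the 312 spans with 10 or more vehicle-only regions one of 179 kb. CUX1, a homeobox factor gene, held 46 XY018-only, 30 vehicle-only and 51 shared regions over 469 kb. GSE1, a component of a histone deacetylase complex, held 44, 30 and 90, and 19 of its 44 overlapped an SREBP2 vehicle region, against 5 of 46 at CUX1. RERE held 39 and 38, so that its XY018-only and vehicle-only regions were nearly equal in number. NAV1 held 38 against 14 vehicle-only regions, PARD3, a polarity gene, 37 against 24, PRKCE, a protein kinase C gene, 36 against 17, and a readthrough gene over ST3GAL3, ENSG00000284989, 36 against 15. RAD51B held 36 against 27 and MACF1 35 against 24. With lists of equal length the excess was small or gone at CUX1 (36 against 33), GSE1 (34 against 31), PARD3 (27 and 27), RAD51B (29 against 31), MACF1 (23 against 28) and RERE (27 against 40). It was kept at NAV1 (29 against 18), PRKCE (30 against 18) and ENSG00000284989 (26 against 15). The 10 spans, TANGO6 below among them, were picked for their number of XY018-only regions. Some excess over vehicle-only regions follows from that choice, also with lists of equal length. Among all spans in the deposited lists, 5895 held more XY018-only and 3745 more vehicle-only regions.

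TANGO6, a gene of protein transport at the Golgi, differed from the other 9 in its counts. It held 35 XY018-only, 4 vehicle-only and 35 shared regions over 243 kb, and with lists of equal length 27 XY018-only and 5 vehicle-only ones. The 35 had between 7 and 17 fragments, with a median of 12, and 19 had a q-value of 1e-05 or lower. SREBP2 vehicle regions overlapped 4 of them and RORγ vehicle regions 6. Noted after the counts were seen, ZMYND8 held 30 against 4 and NLRC5, a regulator of MHC class I genes, 21 against 2, with 2 shared regions.

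**Figure D5:**
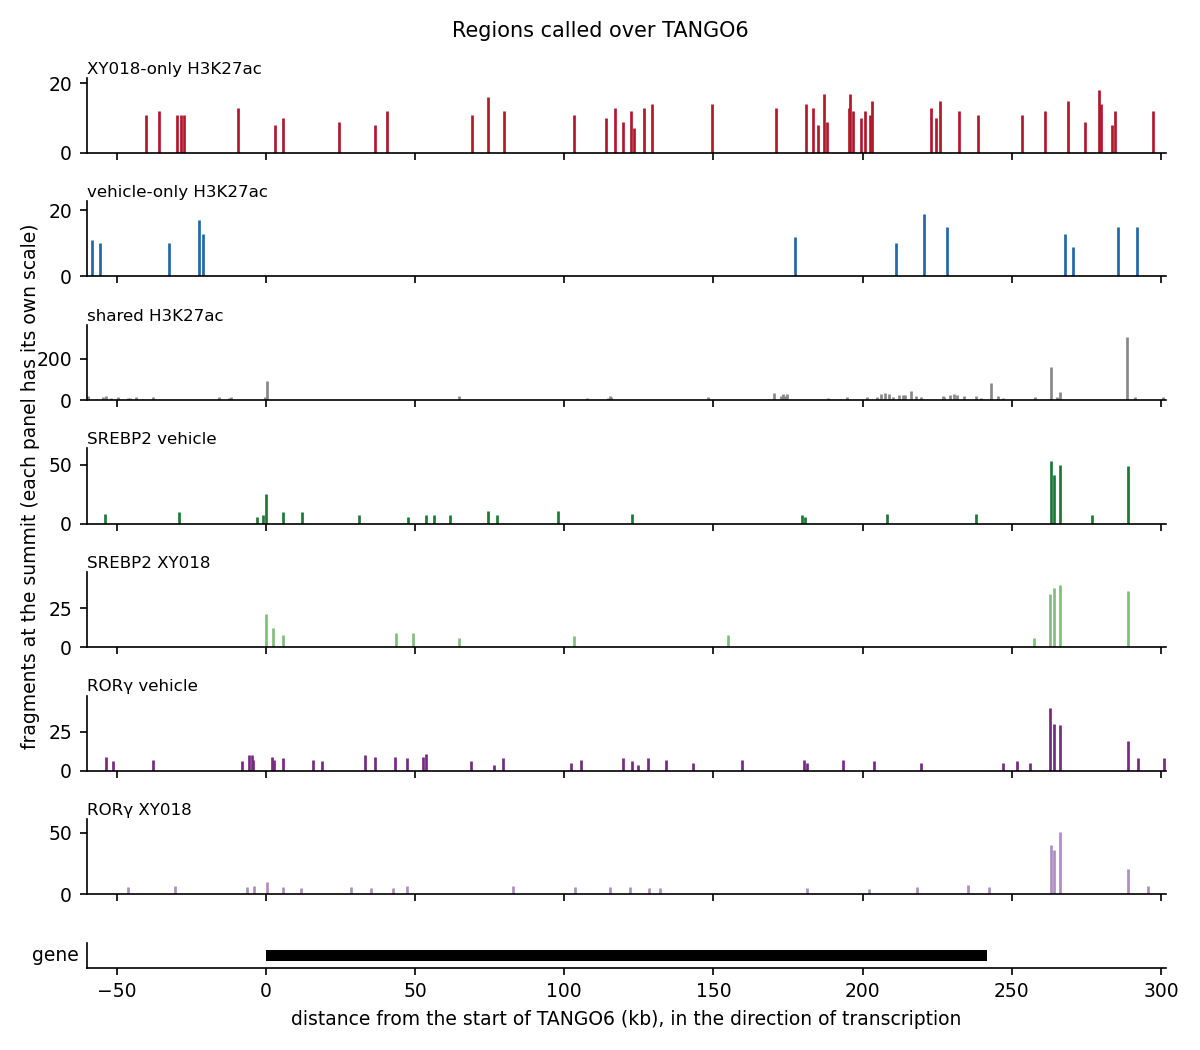
Regions called over TANGO6 and 60 kb to either side, by distance from the gene's start (kb, in the direction of transcription). Each line is 1 region and its height the fragments at its summit, with a scale of its own per panel, and the black bar is the gene. The gene was picked for the map after its counts were seen, and within it 35 XY018-only regions of 7 to 17 fragments stand beside 4 vehicle-only regions.

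By windows of 200 kb, XY018-only regions were found in 6318 windows with a median of 4 each, and the fullest 17.3% of these windows (1090) together held at least 50% of the set. The fullest, chr1:28400001-28600000 with EYA3, PTAFR and SESN2, held 41 against 19 vehicle-only regions. Next came chr16:10600001-10800000 with EMP2 and TEKT5 (39 against 10) and chr16:69000001-69200000 with TANGO6 and HAS3 (39 against 9). The last 2 of the top 5 were chr16:57800001-58000000 with KIFC3 and CNGB1 (38 against 22) and chr1:9800001-10000000 with CLSTN1 and CTNNBIP1 (37 against 13). In all 5 windows the median XY018-only region had 11 to 12 fragments and the highest 29 or fewer, so they were many weak regions rather than a few strong ones.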

How the data were processed

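The 6 immunoprecipitated libraries were grouped by the labels of antibody and treatment, and the inputs were not used here. According to the methods of the study, uniquely mapped, deduplicated single-end tags on hg19 were passed to MACS. The labels name Bowtie2 and MACS2 2.1.0, the methods BWA. In each deposited list the fold, the ratio of summit pileup to local background (each plus 1), and the −log10 p and −log10 q values were the authors' own, 1 library per list. The SREBP2 and RORγ lists were complete runs of peak numbers. The H3K27ac lists had gaps in their peak numbers, which ran to 245055 with vehicle and 241397 with XY018, so they hold a selection whose rule no source used here states. The deposited display score was not used.

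Whole fragments at each summit were recovered from fold and −log10 p by inverting the Poisson tail. Of regions, 98.7% to 100% came out whole, to within 5% of the −log10 p step from 1 number to the next. Genome-wide background was 1.17 and 1.07 fragments (H3K27ac, vehicle and XY018), 1.03 and 1.21 (SREBP2) and 0.79 and 0.71 (RORγ), and depth limits weak regions first. Overlap meant 1 bp or more. Shares had exact Clopper-Pearson and fragments exact Poisson 95% intervals, which cover counting error only. Genes were GENCODE 44 lifted to GRCh37, the build of the files. The 150 bp to either side of a summit were searched for each motif and its reverse complement, and matches to different motifs could overlap: AP-1 TGANTCA, CRE TGACGTCA, ROR response element ANTAGGTCA or ANTGGGTCA, SRE TCACNCCAC, TEAD ACATTCC, GRHL AACNGGTT, ETS CCGGAAGT, GATA factor AGATAAG, FOX TGTTTAC, RUNX TGTGGTT, STAT TTCNNNGAA, kappaB GGGNNTTCC, SP1 GGGGCGGGG, NF-Y CCAATCA or CCAATGA, ATF4 TGATGNAA, HSF GAANNTTC, CEBP TTGCGCAA and CTCF core AGGGGGC. Named were the 10 regions of highest fold, the 15 genes whose gained promoters had the highest fold, the 10 spans and 5 windows of 200 kb with most XY018-only regions, every gained listed gene, and SREBF2, SQLE and ABCA1. A few genes and sequences that this rule names are not reported here. Of 369 listed genes 367 were matched. The members and lists were chosen with earlier results of these data known. Python 3.11.15, pandas 2.3.3, scipy 1.17.1 and pysam 0.24.0 were used, and the steps were tested on simulated data. Alternatives were stricter q-values, equal list lengths, a 1 kb gap, 50% overlap, summit windows, and other promoter and motif windows.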

Additional observations from a re-analysis of the deposited data

How the results depend on the processing

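No paired analysis was possible because each group has 1 library and no replicate numbers. For 10 results and 9 alternative settings, 44 values were recomputed, of which 11 stayed within the interval of the reported value or within 1.5 times the reported count and 33 moved. With q of at most 1e-05 in both H3K27ac lists, the XY018-only share was 33.1%, the promoter share 15.4%, the share within 1 kb of a vehicle region 37.8%, and the overlap with SREBP2 vehicle, SREBP2 XY018, RORγ vehicle and RORγ XY018 regions 13.2%, 7.94%, 11.5% and 9.70%. With lists of equal length the values were 33.5%, 13.9% and 41.0%, and 12.2%, 7.08% and 9.30% for SREBP2 vehicle, SREBP2 XY018 and RORγ XY018. With regions over 1 kb from any vehicle region they were 22.6% and 10.9%, and 12.8%, 7.52%, 12.2% and 10.0% for the 4 factor lists. Requiring 50% overlap gave an XY018-only share of 38.9%. Stricter factor peaks gave 5.77%, 3.92%, 4.28% and 4.23%, and factor regions within 100 bp of the summit 10.3%, 6.04%, 9.61% and 7.91%. Promoter windows of 5 kb to either side gave a promoter share of 51.9%. Motif windows of 75 bp gave 3.05% for AP-1 and 0.476% for the ROR response element, and of 500 bp 27.1% and 4.61%, since longer windows hold more letters. The gained promoters numbered 557 to 641 throughout. Chosen after seeing the data, equal list lengths left 10 of 23 chromosomes with more XY018-only than vehicle-only regions in place of 23, and 416 genes with the reverse promoter pattern in place of 376. Depth limits the weak regions most, and a missing call does not show a missing mark.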
